A study of Mus musculus and Rattus norvegicus with 26 samples.

Results

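DNA mismatch repair corrects bases that were paired wrongly and small loops of unpaired bases. Proteins of the MutS family recognise the fault, and proteins of the MutL family are then recruited and start the removal of the strand that carries it. These proteins act in pairs. MSH6 takes part in the binding of single mismatches and MSH3 in that of larger loops, while PMS2, PMS1 and MLH3 are MutL proteins. In the brain, MSH3 and MLH3 are known for their part in the growth of triplet repeats in mouse models of Huntington disease.

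Intron sequence of 5 genes of this pathway was described, Msh3 and Msh6 of the MutS family and Mlh3, Pms1 and Pms2 of the MutL family. All intronic contigs whose gene symbol was one of these names were taken, which gave 69 of 112345 contigs in 6 lists and 5 of 13695 genes. A contig is a stretch of an intron spanned by clustered reads. Per the study's methods, reads were joined across gaps, so not every base of a contig need be covered by a read. The contigs lay in 57 introns, counting an intron in each list where it occurred.

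The RNA came from cells and cell parts of rodent embryos, was amplified in 3 rounds by the aRNA method, which primes on runs of adenine, and was sequenced. Dendrites and somas of hippocampal neurons in culture came from C57BL/6 mice (3 dendrite and 3 soma libraries) and Sprague-Dawley rats (2 dendrite and 3 soma libraries), all labelled embryonic day 18. Each dendrite library held many dendrites dissected by hand, while a soma library was a single cell body. The other libraries were 6 from interscapular brown adipose tissue (BAT) cells of CD-1 mice at embryonic day 17.5, which were picked by their morphology, and 9 from cardiomyocytes of transgenic C57BL/6 mice at embryonic day 14.5. The cardiomyocytes carried a Fucci reporter (mAG-hGem) under a CMV promoter and were sorted from ventricles by fluorescence and viability. Age, tissue and dissection differed together between the neuronal, BAT and cardiomyocyte lists. For BAT cells the strain differed as well, and for cardiomyocytes the transgene, so the parts of these cannot be told apart. Per the study's methods, neurons were grown in culture after the embryos were taken, so embryonic day 18 is not their age at harvest.

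The libraries of a group were pooled in 1 list. For BAT cells and cardiomyocytes the labels hold more libraries than the study's text describes, and the sources used here do not say from which of these the pooled reads came. So values per library, a spread between libraries and a test between groups could not be given. The listed reads summed to 3055265 in mouse dendrites, 1834864 in mouse somas, 17669602 in BAT cells, 11924706 in cardiomyocytes, 1006711 in rat dendrites and 2089809 in rat somas. These sums cover listed introns only and are not the depth of the libraries. Values are raw reads of an intron and reads per 1000000 listed reads of the same list (RPM), each with a 95% exact Poisson interval. More cells and more RNA per cell cannot be told apart in a pooled list. All intervals cover counting error only. A gene without a contig in the list used here is called not listed, which does not show that it had no reads. The protocol did not keep the strand, so reads of a gene and of RNA from the opposite strand cannot be told apart.

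Markers of the labelled cells were checked by the genes listed. Of 10 neuron markers, 9 were listed in mouse somas, 8 in mouse dendrites, 6 in rat somas and 4 in rat dendrites, and Map2 was in none of the 6 lists. Their summed RPM was 10966 in mouse somas and 2591 in mouse dendrites, 8835 in rat somas and 1666 in rat dendrites, and the most read gene in mouse was Syt1 in somas and Dlg2 in dendrites. Rbfox3 was listed in mouse somas only. The BAT list also held 8 of these 10 at 1751 RPM, and the cardiomyocyte list 3 at 827 RPM. Of 10 brown adipocyte markers, 8 were listed in BAT cells at 4766 RPM, with Pparg the most read, and Ppargc1a and Adrb3 were not. Mouse dendrites held 6 of them at 341 RPM, cardiomyocytes 4 at 336, mouse somas 2 at 2.18, rat dendrites 1 at 94.4 and rat somas 2 at 15.8. Of 12 cardiomyocyte markers, 10 were listed in cardiomyocytes at 35648 RPM, with Ryr2 the most read, and the transcription factors Nkx2-5 and Gata4 were not. The BAT list held 8 of the 12 at 3486 RPM, with Nkx2-5 the most read, mouse dendrites 7 at 1189 and mouse somas 4 at 1083. Rat dendrites and somas held 2 each, at 52.6 and 1610.2 RPM. Glial markers numbered 6 of 8 in mouse dendrites, at 978 RPM with Aldh1l1 the most read, and 4 of 8 in mouse somas, at 145 RPM with Slc1a2 the most read and Gfap not listed. The BAT list held 6 of the 8 at 160.0 RPM, cardiomyocytes 1 at 276, rat dendrites 1 at 68.5 and rat somas 2 at 121. Of 7 markers of fibroblasts and endothelium, 7 were listed in BAT cells at 55.7 RPM, 5 in mouse dendrites at 78.9, 3 in mouse somas at 497, 1 in cardiomyocytes at 0.503, 2 in rat dendrites at 317 and 1 in rat somas at 0.957. Of the markers of the labelled cells, the share listed was 90% in mouse somas and 83.3% in cardiomyocytes, beside 47.3% and 49.8% of all genes of any mouse list. It was 80% in BAT cells and 80% in mouse dendrites, beside 82% and 69%, and in rat 60% in somas and 40% in dendrites, beside 59.4% and 78.5% of all genes of any rat list. In BAT cells and rat somas the number of markers listed was thus near that of all genes, and in rat dendrites below it. By summed RPM, brown adipocyte markers were highest in BAT cells, cardiomyocyte markers in cardiomyocytes and neuron markers in mouse somas, while the neuron markers of rat dendrites were below those of BAT cells. The part of other cells in the values below was not tested.

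The BAT and cardiomyocyte lists stood apart from the other pairs of mouse lists. Of 5721 pairs of overlapping contigs between them, 16.8% had identical start and end, against 2.43% to 6.76% in the other 5 pairs of mouse lists and 14.4% in the pair of rat lists. The counts of overlaps and of near 3′ ends are therefore also given without this pair of lists. Other counts over pairs of lists include it.

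All 5 genes were listed in mouse dendrites and in BAT cells, where 69% and 82% of the 12467 genes of any mouse list were found. In mouse somas 4 of the 5 were listed (47.3% of all genes), without Msh6. In cardiomyocytes 3 of the 5 were listed (49.8% of all genes), without Mlh3 and Msh6. In rat dendrites 2 of the 5 were listed, Msh3 and Pms1, beside 78.5% of the 5712 genes of any rat list, and in rat somas Pms1 alone, beside 59.4%. Of 30 combinations of gene and list, 20 were filled.

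**Figure D1:**
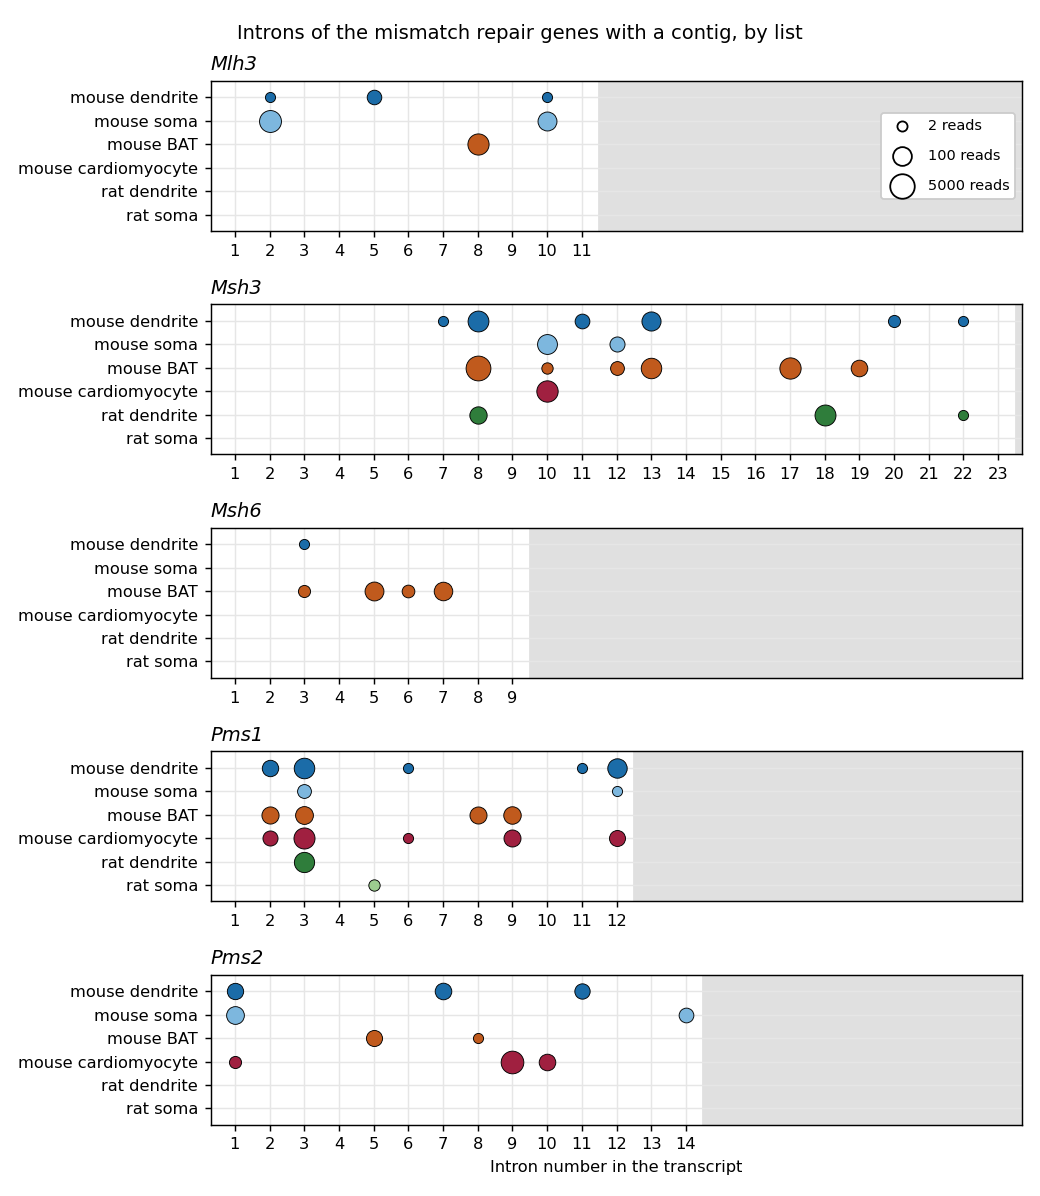
Introns with a contig in each gene (panels) by intron number (horizontal axis) and list (vertical axis), with the area of a dot rising with the logarithm of the intron's raw reads and grey marking numbers beyond the last intron of the mouse transcript. Pms1 intron 3 holds a dot in all 4 mouse lists, and the Mlh3 panel has none in cardiomyocytes or rat.

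The mouse transcripts of the 5 genes have 69 introns in the GENCODE annotation of NCBIM37 (mm9). Of these, 33 held a contig in at least 1 mouse list, which is 47.8% (95% Wilson interval 36.5 to 59.4). Over all matched mouse transcripts 29.1% of 155673 introns did so. The 5 genes were chosen with earlier results of these data known, while the 29.1% takes every matched transcript of any mouse list. The interval also takes introns of a gene as independent, so it is no test against that share. Listed introns were longer, with medians of 2667 nt against 1660 nt for those not listed, and over all matched transcripts these medians were 2613 and 1129 nt. By gene, 4 of 11 introns were listed in Mlh3, 10 of 23 in Msh3, 4 of 9 in Msh6, 7 of 12 in Pms1 and 8 of 14 in Pms2. Msh6 went the other way in length, with a median of 683 nt in its listed introns and 1204 nt in the others. Pms1 did as well, with 6688 and 11035 nt, and its longest intron (intron 5, 40281 nt) was not listed in mouse. The first intron was listed only in Pms2. Of the 33 introns, 20 were in 1 mouse list, 8 in 2, 4 in 3 and 1 in all 4. These shares of 60.6%, 24.2%, 12.1% and 3.03% were near the 60.5%, 25.7%, 10% and 3.71% of the 45322 listed introns of all matched transcripts.

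Msh3 encodes a MutS protein for larger loops. It was listed in 5 of the 6 lists. In BAT cells 6 of its introns carried 6958 reads, or 394 RPM (interval 385 to 403). The value was 165 (151 to 180.4) in mouse dendrites from 505 reads, 113 (98.0 to 129) in mouse somas from 207 reads and 42.5 (38.9 to 46.4) in cardiomyocytes from 507 reads. The order by RPM was therefore BAT cells, dendrites, somas and cardiomyocytes, with no overlap of neighbouring intervals. In raw reads cardiomyocytes stood above somas and by 2 reads above dendrites, with intervals that overlapped for the second. The soma value rested mainly on 1 contig over 400 nt. A limit of 400 nt on the contigs of whole cells was tried as an alternative. Since reads are given per intron, an intron with a shorter contig beside a longer one kept all its reads under the limit, and the totals of the whole-cell lists fell, which moves the RPM of every gene. The ratio of BAT cells to somas was then 57.3 in place of 3.49 (interval 3.04 to 4.03). It sets somas without the reads of that contig against BAT cells with all reads of intron 8, although 1 of its 4 contigs there had 731 nt. In rat dendrites Msh3 had 438 reads in 3 introns, or 435 RPM (395 to 478), of which intron 18 held 392 and intron 8 held 44. It was not listed in rat somas.

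In BAT cells and mouse dendrites the reads of Msh3 sat mainly in its longest intron, intron 8 (29559 nt, NM_010829, chr13:93082642-93112200, minus strand). It held 6147 reads in BAT cells and 362 in mouse dendrites, in 4 contigs each, and was not listed in mouse somas or cardiomyocytes. None of the dendrite contigs overlapped a BAT contig. The dendrite contig nearest to the 3′ end of the intron ended within a run of 19 adenines, and a contig in BAT cells stopped shortly before 14. These ends are shown because such runs could be read in the genome sequence beside the contig. The last 40 bases of each contig are followed by the next 40 on the gene strand (NCBIM37), with runs of at least 6 A in capitals. The first lies at chr13:93083683-93083762 and the second at chr13:93106000-93106079, both on the minus strand.

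Msh3 intron 8, dendrites: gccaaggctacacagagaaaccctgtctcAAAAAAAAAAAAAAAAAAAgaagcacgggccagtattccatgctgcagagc
Msh3 intron 8, BAT cells: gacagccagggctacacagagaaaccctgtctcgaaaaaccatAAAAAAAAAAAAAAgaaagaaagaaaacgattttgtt

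Intron 10 of Msh3 (9086 nt) was listed in 3 lists, with 193 reads in mouse somas, 507 in cardiomyocytes and 3 in BAT cells. The soma contig was 1684 nt long, the longest of all 69, and the cardiomyocyte contig was 724 nt. They overlapped by 706 nt and their 3′ ends lay 18 nt apart, on either side of the same 17 adenines. The BAT contig of 164 nt lay inside both. The end of the soma contig is at chr13:93076393-93076472.

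Msh3 intron 10, somas: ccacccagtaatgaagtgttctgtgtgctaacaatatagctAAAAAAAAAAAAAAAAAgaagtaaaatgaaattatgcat

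In BAT cells the contigs of introns 13 and 17 of Msh3 began at the first base of the intron, with 288 and 482 reads. The dendrite contig of intron 13 (123 reads) started 8598 nt into the same intron. A contig of intron 7 in dendrites touched an exon of another annotated Msh3 transcript. It rested on 2 reads.

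Msh6 encodes a MutS protein for single mismatches. It was listed in mouse dendrites with 2 reads, or 0.655 RPM (interval 0.0793 to 2.36), and in BAT cells with 203 reads, or 11.5 RPM (9.96 to 13.2). In BAT cells the reads fell on introns 5, 7, 6 and 3 with 106, 88, 5 and 4 reads. The contigs of introns 6 and 7 spanned the whole intron (165 and 677 nt), and that of intron 5 reached its last base. They were the contigs of Msh6 with a splice site at their end. The junction of intron 7 (NM_010830, chr17:88389494-88389573, plus strand) is shown with the last AG of the intron in capitals, followed by the next exon.

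Msh6 intron 7, BAT cells: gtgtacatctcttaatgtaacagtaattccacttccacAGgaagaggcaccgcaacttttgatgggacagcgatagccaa

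In intron 3 of Msh6 (831 nt) the dendrite contig of 214 nt contained the whole BAT contig of 170 nt. This stretch (chr17:88383425-88383594) is given because it was found in both lists, from 2 and 4 reads. Whether its sequence is repeated elsewhere in the genome was not tested.

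Msh6 intron 3, common stretch: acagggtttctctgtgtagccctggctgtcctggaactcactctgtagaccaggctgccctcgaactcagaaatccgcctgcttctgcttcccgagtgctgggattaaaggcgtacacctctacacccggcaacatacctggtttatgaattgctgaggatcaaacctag

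Mlh3 encodes a MutL protein that also acts in meiotic crossing over. It was listed in 3 of the 6 lists (NM_175337, chromosome 12, minus strand). Mouse somas held 852 reads in 2 introns, or 464 RPM (interval 434 to 497), BAT cells 455 reads in 1 intron, or 25.8 (23.4 to 28.2), and mouse dendrites 15 reads in 3 introns, or 4.91 (2.75 to 8.10). The intervals did not overlap. Between somas and dendrites the ratio was 94.6 (interval 57.0 to 169.7), and between somas and BAT cells it was 18.0 (16.1 to 20.3). With contigs of at most 400 nt in whole cells, which leaves out the soma contig of intron 2 (455 nt), the first was 25.7 and the second 2.12, with all BAT reads kept although 1 of the 2 BAT contigs had 888 nt. In raw reads they were 56.8 and 1.87. The order of the 3 lists held under each of these, while the distance of somas from BAT cells did not.

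Introns 2 and 10 of Mlh3 were listed in both dendrites and somas, but from different stretches. In intron 2 (4399 nt) the dendrite contig began 135 nt after the 5′ end and the soma contig 2182 nt after it, with 2 and 741 reads. In intron 10 (3131 nt) the dendrite contig began at 1740 nt and the soma contig at 2375 nt, with 2 and 111 reads. Intron 5 was listed in dendrites only, with 11 reads in 2 contigs, and intron 8 in BAT cells only, with 455 reads in 2 contigs. No Mlh3 contig overlapped a contig of another list. No other gene or exon was annotated over the Mlh3 contigs. The dendrite contig of intron 10 (chr12:86579786-86580007) is printed in full because it is the sequence by which this intron entered the dendrite list, from 2 reads. It holds no run of 6 A.

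Mlh3 intron 10, dendrites: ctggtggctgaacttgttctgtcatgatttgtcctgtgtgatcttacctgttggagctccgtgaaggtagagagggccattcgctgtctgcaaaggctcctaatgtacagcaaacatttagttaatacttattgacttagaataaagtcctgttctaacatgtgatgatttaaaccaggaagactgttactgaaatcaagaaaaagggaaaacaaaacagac

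The shorter BAT contig of intron 8 (chr12:86582427-86582681) follows for comparison, and its neighbour, 621 nt upstream of it, had 888 nt.

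Mlh3 intron 8, BAT cells: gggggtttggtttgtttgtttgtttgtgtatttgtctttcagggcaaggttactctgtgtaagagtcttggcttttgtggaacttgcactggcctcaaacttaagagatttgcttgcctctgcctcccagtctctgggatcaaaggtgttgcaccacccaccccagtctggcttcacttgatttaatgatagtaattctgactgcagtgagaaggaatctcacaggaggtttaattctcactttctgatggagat

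**Figure D2:**
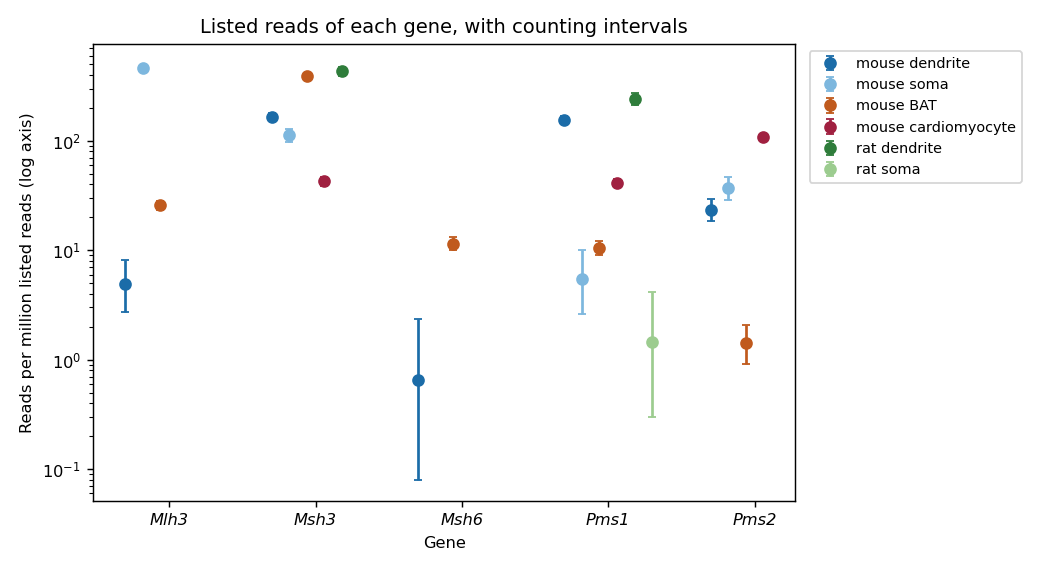
Reads per 1000000 listed reads (RPM, log axis) of each gene (horizontal axis) in each list (colours), with 95% Poisson intervals as bars and no point where a gene was not listed. Mlh3 is at 464 in mouse somas and 4.91 in mouse dendrites, while Pms1 is at 5.45 and 155.

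By distance over the 4 mouse lists, in log2 of RPM plus 1, the genes with the pattern most like Mlh3 were Rtn2, Fam73a, Igf1, Zcchc14 and Kdr, among 4313 genes listed in at least the same 3 lists. Their Euclidean distances were 1.11 to 1.24. Rtn2, the nearest, had 9.16 RPM in dendrites, 294 in somas and 34.7 in BAT cells. Of the 5, Fam73a alone was listed in cardiomyocytes, at 0.335. The distance takes a gene that is not listed as 0, which was so for Mlh3 in cardiomyocytes. Over the 3 lists that hold Mlh3, an alternative chosen after the data were seen, 0 of these 5 genes were among the 5 nearest. Their choice thus depended on including the cardiomyocyte list, with Mlh3 taken as 0 there.

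Pms1 encodes a further MutL protein. It was the only one of the 5 genes in all 6 lists. The value was 155 RPM (interval 141 to 169.8) in mouse dendrites from 474 reads, 41.2 (37.6 to 44.98) in cardiomyocytes from 491, 10.4 (8.96 to 12.03) in BAT cells from 184 and 5.45 (2.61 to 10.02) in somas from 10. The intervals of BAT cells and somas overlapped, and the others did not. In raw reads cardiomyocytes stood above dendrites, with intervals that overlapped. Pms1 in mouse was thus high in dendrites and low in somas, in the opposite order to Mlh3. The ratio of dendrites to somas was 28.5 (interval 15.3 to 59.7), and 13.6 with contigs of at most 400 nt in whole cells, where no Pms1 contig of these lists was left out and the total of the soma list alone changed. Cardiomyocytes stood 3.95 times above BAT cells (3.33 to 4.71), and under that limit the ratio turned to 0.918. The limit took out the reads of intron 3 in cardiomyocytes and of intron 9 in BAT cells. It also left out 1 contig of intron 12 in cardiomyocytes and 1 of intron 2 in BAT cells, while both introns kept their reads. In rat the same order was found, with 240.4 RPM (211 to 273) in dendrites from 242 reads in intron 3 and 1.44 (0.296 to 4.20) in somas from 3 reads in intron 5. The rat ratio was 167 (interval 56.6 to 818), and 49.6 with the limit, again from the soma total alone.

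Pms1 intron 3 (NM_153556, 7139 nt, chr1:53324775-53331913, minus strand) was in all 4 mouse lists, with 296 reads in dendrites, 8 in somas, 58 in BAT cells and 416 in cardiomyocytes. The soma, BAT and cardiomyocyte contigs overlapped near the 3′ end of the intron and began 5763 to 6134 nt after its 5′ end, while the dendrite contig began at 2150 nt. The soma and BAT contigs were rich in A and T, with a GC content of 23.3% and 22.1%, the lowest of the 64 mouse contigs (median 40.8%). The BAT contig ended inside a run of 15 adenines that is followed by a run of 20, and the soma contig stopped shortly before the first of these. The end of the BAT contig is at chr1:53325477-53325556.

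Pms1 intron 3, BAT cells: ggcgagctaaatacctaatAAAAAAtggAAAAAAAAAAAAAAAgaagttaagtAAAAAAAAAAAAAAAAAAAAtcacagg

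In intron 2 (6688 nt) a stretch of 147 nt (chr1:53337246-53337392) was common to dendrites, BAT cells and cardiomyocytes. The whole intron held 27, 40 and 14 reads, and in BAT cells these belong to 3 contigs together. The 3′ ends of the BAT and cardiomyocyte contigs were identical and that of the dendrite contig lay 10 nt away. The stretch ends in a repeat of A and C beside a run of 6 A, as its sequence shows.

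Pms1 intron 2, common stretch: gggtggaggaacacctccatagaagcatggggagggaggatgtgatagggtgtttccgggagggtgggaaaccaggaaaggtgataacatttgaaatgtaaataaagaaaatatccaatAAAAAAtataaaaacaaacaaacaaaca

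Intron 12, the last of Pms1 (2601 nt), was listed in dendrites with 147 reads, in cardiomyocytes with 22 and in somas with 2. The dendrite and cardiomyocyte contigs had the same 3′ end, the last base of the intron, and overlapped by 215 nt. The cardiomyocyte list also had a contig from the first base of this intron. The junction (chr1:53246303-53246382) is given with the AG in capitals. The soma contig lay elsewhere in the intron.

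Pms1 intron 12, dendrites: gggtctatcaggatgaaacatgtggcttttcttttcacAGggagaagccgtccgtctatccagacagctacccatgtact

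**Figure D3:**
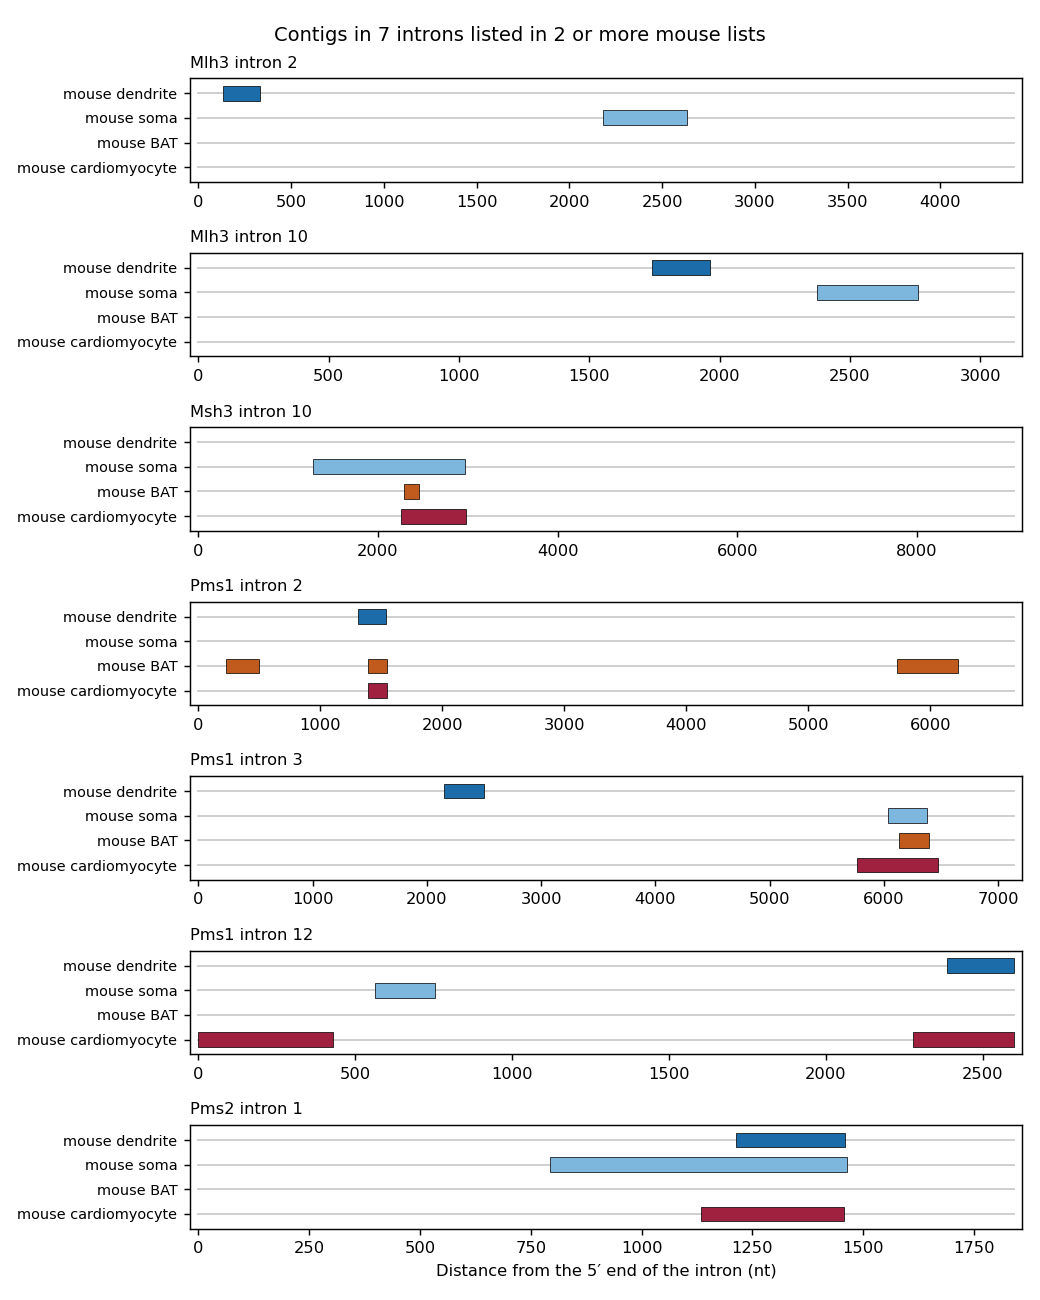
Contigs (bars, to scale) in 7 of the 13 introns of these genes listed in 2 or more mouse lists, by distance in nt from the 5′ end of the intron (horizontal axis) and list (vertical axis). The bars of Mlh3 introns 2 and 10 do not overlap, and those of Pms2 intron 1 end within 7 nt of each other.

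Pms2 encodes the MutL protein with the endonuclease that nicks the strand to be repaired. It was listed in the 4 mouse lists and in neither rat list. Cardiomyocytes held 1299 reads, or 109 RPM (interval 103 to 115), somas 68 reads, or 37.1 (28.8 to 47.0), dendrites 72 reads, or 23.6 (18.4 to 29.7), and BAT cells 25 reads, or 1.41 (0.916 to 2.09). The intervals of somas and dendrites overlapped, and the others did not. The ratio of somas to dendrites was 1.57 (1.11 to 2.22), and it turned with the contig limit (0.580) and in raw reads (0.944). Of the cardiomyocyte reads, 1265 belonged to a single contig of 746 nt in intron 9 (1376 nt). That contig overlapped an exon of Gm17135, a gene annotated on the opposite strand. The contigs of introns 10, 11 and 14 lay within the span of the same gene. With contigs of at most 400 nt the cardiomyocyte value lost this intron, and the ratio of cardiomyocytes to BAT cells was 2.26 in place of 77.0 (interval 51.9 to 119). The soma value lost intron 1 (contig of 669 nt), which held 56 of its 68 reads. The ratio of cardiomyocytes to somas, 2.94 (2.30 to 3.81), then turned to 0.543, and that of somas to BAT cells, 26.2 (16.3 to 43.2), fell to 4.17 and in raw reads to 2.72.

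Intron 1 of Pms2 (NM_008886, 1841 nt, plus strand) was in dendrites, somas and cardiomyocytes with 26, 56 and 4 reads. Their contigs of 246, 669 and 321 nt began at different bases but ended within 7 nt of each other.

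The other Pms2 introns were each in 1 list. The contig of intron 10 in cardiomyocytes (30 reads) ended beside a run of 18 adenines, and that of intron 14 in somas (12 reads) began at the first base of the intron.

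The ratios between lists were counted past 4-fold among genes in both lists. Between mouse dendrites and somas 2 of the 4 genes in both passed, Mlh3 and Pms1, beside 58.2% of all 4739 genes. It was 2 of 3 between BAT cells and cardiomyocytes, Msh3 and Pms2, beside 62.6% of 5442 genes. Between BAT cells and somas it was 2 of 4, Mlh3 and Pms2, beside 60.5% of 5076 genes. In raw reads these were 1.87 and 2.72 and did not pass, while Msh3 (33.6) and Pms1 (18.4) did. It was 1 of 3 between cardiomyocytes and somas, Pms1, beside 63.1% of 3700 genes, where Pms2 passed as well in raw reads (19.1), and 1 of 1 between rat dendrites and somas, Pms1, beside 60.4% of 2166 genes. A difference past 4-fold was common over all genes, so these counts did not set the 5 genes apart. Msh3 in BAT cells against cardiomyocytes had a ratio of 9.26 (interval 8.46 to 10.2), and its cardiomyocyte contig is over 400 nt. Pms1 in cardiomyocytes against somas had 7.56 (4.07 to 15.9), and 1.44 with contigs of at most 400 nt. The ratio of Msh3 between dendrites and somas was 1.47 (1.24 to 1.73), and 10.4 under that limit, which removed the long soma contig.

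A gene in both lists of a pair need not have the same intron in both. At least 1 common intron was found for 3 of the 4 genes in mouse dendrites and somas (73.1% of all genes in both lists), 3 of 5 in dendrites and BAT cells (76.4%) and 2 of 3 in dendrites and cardiomyocytes (68%). It was found for 2 of 4 in somas and BAT cells (74.7%), 3 of 3 in somas and cardiomyocytes (66.5%) and 2 of 3 in BAT cells and cardiomyocytes (79.8%). In rat it was 0 of 1 (66.1%). With introns of at least 10 reads alone, a common intron was found in 6 of 18 combinations of gene and pair of lists, in place of 15 of 23, beside 66% and 73.2% over all genes. Several of the common introns rested on 2 reads in at least 1 of the lists, among them Mlh3 introns 2 and 10 and Msh6 intron 3 in dendrites, Pms1 intron 12 in somas and Pms1 intron 6 in both dendrites and cardiomyocytes. Genes with the same numbers of listed introns in a pair of lists were taken as a further comparison. Pms1 had a common intron in all 6 pairs of mouse lists, where 81.6% to 97.7% of such genes had one, and none in rat (53.8%). Mlh3 had one in dendrites and somas (87.8%) and none in dendrites and BAT cells (66.4%) or somas and BAT cells (59.4%). Msh3 had one in 4 of its 6 pairs (53.1% to 96.3%). It had none in dendrites and somas (86.4% of 44 genes) or dendrites and cardiomyocytes (44.8% of 29). Pms2 had one in the 3 pairs among dendrites, somas and cardiomyocytes (87% to 91.6%). It had none in BAT cells with dendrites (80.1%), somas (79.2%) or cardiomyocytes (84.8%). Msh6 had one in dendrites and BAT cells (73%).

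**Figure D4:**
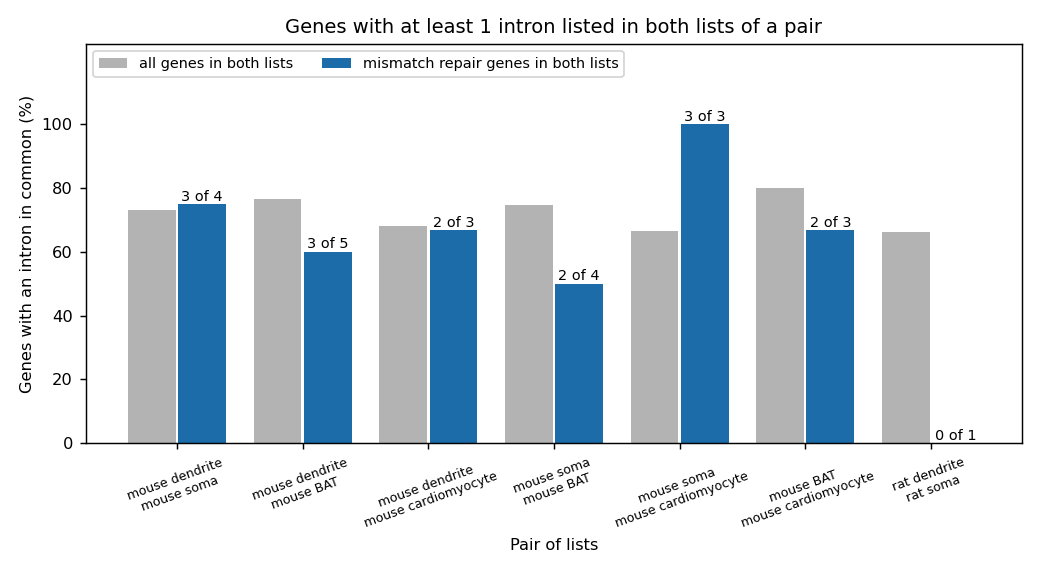
Percent of genes with at least 1 intron listed in both lists (vertical axis) for each pair of lists (horizontal axis), over all genes in both lists (grey) and over the mismatch repair genes (blue, with their numbers above the bars). The grey bars run from 66.1% to 79.8%, and the blue bars rest on at most 5 genes each.

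Common introns were also compared by the bases that their contigs spanned. In the 6 pairs of mouse lists the 5 genes had 26 common introns, counting each pair, and in 15 of them the contigs overlapped, beside 53.5% of 36377 over all genes. Of the 15 overlaps 8 were in Pms1, 3 in Msh3, 3 in Pms2, 1 in Msh6 and 0 in Mlh3. The 3′ ends lay within 10 nt in 7 of the 15, beside 31.3% of 21123 over all genes, and these 7 were in Pms1 (4) and Pms2 (3). All 7 came from introns 2 and 12 of Pms1 and intron 1 of Pms2. Pms1 intron 2 and Pms2 intron 1 entered with 3 pairs of lists each, so the pairs are not independent and the shares rest on few sites. Without the pair of BAT cells and cardiomyocytes there were 22 common introns and 11 overlaps, beside 50.3% of 28542 over all genes, and 6 of the 11 ends lay within 10 nt, beside 26.3% of 15402.

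Mouse and rat were compared by intron number only, and whether introns of the same number correspond was not tested. In dendrites Msh3 had introns 8 and 22 and Pms1 had intron 3 in both species, so 2 of the 2 genes had a common number, beside 43.6% of 2763 genes. Among genes with the same numbers of listed introns the share was 71.4% of 21 genes for Msh3 and 42.4% of 59 for Pms1. Intron 22 of Msh3 rested on 2 reads in each species. In somas Pms1 had none, beside 38.1% of 1775 genes and 33.6% of the 256 with the same numbers of listed introns.

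The 69 contigs had a median length of 246 nt (95% interval 225 to 279) and ran from 57 to 1684 nt, beside a median of 271 nt over all lists. Of the 64 mouse contigs, 3 touched an annotated exon, beside 7.85% of all 95027 matched mouse contigs. A tract of at least 10 adenines within 300 nt downstream was found for 8 of the 64, or 12.5% (Wilson interval 6.47 to 22.8), beside 9.35% of all 95027 matched mouse contigs. Contigs were also sorted by their 3′ end, by rules chosen after the ends had been seen. Of the 64, 6 ended within 2 nt of the intron's last base (9.38%, beside 14.5% of all). A further 23 had a run of at least 6 A between 25 nt before and 40 nt after the end (35.9%, interval 25.3 to 48.2, beside 25.1%). With a minimum of 8 A these shares were 17.2% and 16.1%, and with 6 A between 10 nt before and 10 nt after the end they were 29.7% and 15.5%. The difference from all contigs thus depended on the minimum of A. By list it was 7 of 10 in cardiomyocytes (28.5% of all contigs of the list), 4 of 8 in somas (38%), 6 of 24 in BAT cells (19.9%) and 6 of 22 in dendrites (25.2%). The same stretch counts anew in each list. Among the 23, overlapping contigs of Msh3 intron 10, Pms1 introns 2 and 3 and Pms2 intron 1 recur between lists, and some of these are also among the 8. The Wilson intervals take contigs as independent and are thus likely too narrow.

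Of the 22 further genes of mismatch repair, 14 were listed in mouse dendrites, 9 in mouse somas, 17 in BAT cells, 11 in cardiomyocytes, 11 in rat dendrites and 2 in rat somas. In the order of these lists the shares were 63.6%, 40.9%, 77.3%, 50%, 50% and 9.09%, beside 69%, 47.3%, 82%, 49.8%, 78.5% and 59.4% of all genes of any list of the species. The shares over all genes leave out genes in no list, which the 22 do not. Fan1 alone was in none. The meiotic MutS gene Msh4 had 421 RPM in mouse dendrites, 73.6 in somas, 12.3 in BAT cells, 29.8 in rat dendrites and 1.44 in rat somas, and Msh5 was in BAT cells only, at 0.453. The exonuclease gene Exo1 had 42.9 in mouse dendrites, 1.58 in BAT cells, 3.94 in cardiomyocytes and 15.9 in rat dendrites. The sliding clamp gene Pcna was at 50.9 in cardiomyocytes, 0.655 in mouse dendrites, 0.340 in BAT cells and 1.99 in rat dendrites. Of the clamp loader genes, Rfc1 was in all 4 mouse lists, from 88.0 in dendrites to 498 in cardiomyocytes, and at 1.99 in rat dendrites. Rfc2 had 155 in somas and 24.4 in cardiomyocytes. Rfc3 was highest in cardiomyocytes, at 111, Rfc4 in BAT cells, at 124, and Rfc5 in somas, at 88.3. Of the genes for the protein that coats single strands, Rpa1 was highest in BAT cells, at 162, and Rpa2 and Rpa3 in rat dendrites, at 47.7 and 117. The ligase gene Lig1 was highest in mouse dendrites, at 36.0. Of the polymerase delta genes, Pold1 was in BAT cells only, at 6.90, Pold2 in somas at 1.64 and BAT cells at 0.170, Pold3 highest in mouse dendrites, at 11.1, and Pold4 in mouse somas only, at 1.09. The helicase gene Mcm9 had 322 in mouse dendrites, 138 in somas, 36.6 in cardiomyocytes and 0.906 in BAT cells, and Mcm8 had 45.8 in mouse dendrites and 0.113 in BAT cells.

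Other repair pathways were counted for comparison, with examples from the genes of most reads. In base excision repair 6 of 21 genes were listed in mouse dendrites, 5 in somas, 14 in BAT cells, 11 in cardiomyocytes, 3 in rat dendrites and 6 in rat somas. These shares were 28.6%, 23.8%, 66.7%, 52.4%, 14.3% and 28.6%, below those of all genes given above in each list but cardiomyocytes. The glycosylase gene Ogg1 had 7681 reads in dendrites (2514 RPM), and Parp1 had 969 in cardiomyocytes (81.3 RPM). In nucleotide excision repair it was 10, 10, 12, 7, 5 and 5 of 19, in the same order of lists, and the share was above that of all genes in mouse somas alone (52.6%). Ercc6 had 7374 reads in cardiomyocytes (618 RPM). In double strand break repair it was 19, 14, 19, 16, 8 and 5 of 22, above the share of all genes in the 4 mouse lists (86.4%, 63.6%, 86.4% and 72.7%) and below it in both rat lists (36.4% and 22.7%). Brca1 had 8987 reads in cardiomyocytes (754 RPM) and the kinase gene Atm 3971 in dendrites (1299.7 RPM).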

How the data were processed

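Per the study's methods, the authors trimmed adapter, poly(A) and poly(T) sequence, aligned the reads with RUM to mm9 or rn4 and counted intronic reads that mapped uniquely. Introns overlapping predicted genes, poly(A) sites or annotated RNA families were taken out, reads were joined into contigs, and the libraries of a group were pooled. The deposited counts are raw reads per intron, repeated on each contig of the intron. They were taken once per transcript and intron. The limit on contig length that the study's methods set for whole cells was not applied to the deposited lists, where 32.8% to 38% of the contigs of whole cells were over 400 nt. It was used here as an alternative. The members and gene lists were chosen with earlier results of these data known.

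Starts were shifted by 1 to count from 1. The stop was read as the last base, because 12300 mouse contigs then ended on the last base of an annotated intron, against 11 when it was read as 1 past the last base. The second reading had been used at first, and it makes every contig 1 nt shorter. Mouse transcripts were matched by symbol and position to GENCODE (12776 of 13156, 97.1%). Reads per gene came from the transcript with most reads. Python 3.11.15, pandas 2.3.3, numpy 2.4.6, scipy 1.17.1, pysam 0.24.0 and matplotlib 3.10.9 were used. Counting of common introns and runs was tested on simulated data. Named genes were the 5 members, the mismatch repair genes listed, 2 with most reads in each of the other repair lists and the 5 genes nearest to Mlh3. Rat intron lengths and sequences were not analysed here. Whether any contig or printed stretch lies in sequence repeated elsewhere in the genome was not tested. Some genes and sequences that these rules take are not reported here.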

Additional observations from a re-analysis of the deposited data

How the results depend on the processing

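Alternatives were limits on contig length and reads, other scalings, other definitions of a common intron and other tracts. At least 32 reads left 25 of 57 introns and a median contig length of 370 nt in place of 246. At least 10 reads left a common intron in 6 of 18 combinations of gene and pair of lists in place of 15 of 23. Tracts of at least 6 A lay downstream of 29.7% of contigs and runs of 10 T of 0%, in place of 12.5%. Runs of at least 8 A at the contig end, added after the data were seen, gave 17.2% in place of 35.9%. Of the 5 genes most like Mlh3, 0 remained over the 3 lists that hold it, which was also added then. Leaving out the cardiomyocyte list, where Mlh3 was taken as 0, was the only change made there. The causes of the changes given before it were not tested. The limit on contig length kept all reads of an intron with 1 short contig and lowered the totals of the whole-cell lists, so ratios moved also where no contig of the gene was left out. With contigs of at most 400 nt in whole cells 2 of 15 had no value, 5 of 13 changed sides of 4-fold and 3 changed sides of 1. With raw reads 5 and 2 of 15 did so. Without the 100 most read introns 1 of 15 passed 4-fold anew (Pms1 in cardiomyocytes over BAT cells, 4.07 after 3.95). Per sequenced read, 0 of the 5 neuronal ratios changed sides. Leaving out single libraries was not possible, since the lists are pooled. No paired analysis was possible because the lists carry no replicates. The introns with 2 reads, among them 2 of the 3 Mlh3 introns in dendrites, rest on little evidence, and the part of depth in this was not tested.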
